A study of Mus musculus with 8 samples.

Results

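The MORC family of the mouse was followed through RNA-seq of postnatal day 12 testes. Its members, *Morc1*, *Morc2a*, *Morc2b*, *Morc3* and *Morc4*, were taken by gene symbol, and all 5 were found among the 24651 genes of the count tables. The series holds 4 libraries labelled wild type and 4 labelled *Morc2b*-/-, each from a pair of testes of males of a mixed strain background. In the knockout allele the second exon of *Morc2b*, which carries the whole coding region, was replaced by a PGKNeo selection cassette by homologous recombination. The allele came from 1 clone of embryonic stem cells on a hybrid strain background, and it is carried by every cell, germ cells and somatic cells alike. The sample labels name the control group wild type, while the series description names it *Morc2b*+/-. The labels were followed here. The comparison asks whether the other *Morc* genes differ in level when *Morc2b* is lost, and whether *Morc2b* moves with any of them from sample to sample. It covers RNA only. By western blot, at a later age, the paper reports less MORC1 and MORC2A protein in *Morc2b*-/- testes.

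MORC proteins are nuclear ATPases of the GHKL class, the fold that they share with HSP90, type II topoisomerases and MutL mismatch repair proteins. They also carry a zinc finger of the CW type, and they are known as factors that compact or silence chromatin. Binding to methylated histone H3 is cited in the paper for MORC3. MORC1 is a germ cell protein needed for transposon silencing in the male germ line. MORC2A is broadly expressed and acts with the HUSH complex in silencing by histone H3 lysine 9 methylation. MORC3 is found in PML nuclear bodies and MORC4 is the least studied member. *Morc2b* is a rodent gene of the retrotransposed kind. It derives from a processed transcript of *Morc2a* and is used in meiotic germ cells.

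The origin of *Morc2b* is visible in its sequence, and the likeness decides how far reads of the pair can be kept apart. In the NCBIM37 (mm9) annotation *Morc2a* occupies 40984 bp of the plus strand of chromosome 11 and its coding region is spread over 26 exons. *Morc2b* occupies 4096 bp of the minus strand of chromosome 17 (33272533 to 33276628), with the coding region in 1 exon. A stretch of 60 coding bases around the first *Morc2a* exon junction that aligns without a gap is shown because it carries the trace of a spliced template. In *Morc2a* an intron of 8224 bp separates the first 30 of these bases (chr11:3550421-3550450) from the last 30 (chr11:3558675-3558704). In *Morc2b* the same 60 bases are continuous (chr17:33275644-33275703). Both sequences are written 5′ to 3′ on the coding strand, start at base 39 of the coding region, and have the 7 bases that differ in capitals.
Morc2a: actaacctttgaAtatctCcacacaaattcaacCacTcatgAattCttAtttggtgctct
Morc2b: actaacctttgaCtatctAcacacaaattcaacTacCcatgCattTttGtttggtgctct

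The most similar window of read length is shown next, since it marks the place where reads of the pair are hardest to tell apart. Libraries were run for 75 cycles, so every window of 75 bases in the *Morc2b* transcript was set against every window of the annotated coding transcripts of *Morc2a*. The closest pair differed at 3 bases, in capitals below. It lies at chr17:33274530-33274604 on the minus strand in *Morc2b* and at chr11:3579723-3579797 on the plus strand in *Morc2a*. In each gene it starts at base 1138 of the coding region.
Morc2b: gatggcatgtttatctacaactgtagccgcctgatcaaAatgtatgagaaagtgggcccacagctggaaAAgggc
Morc2a: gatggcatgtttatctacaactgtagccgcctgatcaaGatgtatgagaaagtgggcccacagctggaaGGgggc

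Of 3638 *Morc2b* windows, 0 matched *Morc2a* with 2 or fewer mismatches, and 55 (1.51%) did so with 5 or fewer. Over the 2995 windows that were wholly coding, the median was 14.0 mismatches. The windows reaching outside the coding region had a median of 40.0. Mismatches were counted without gaps, so an insertion or deletion inside a window raises them too. They were uneven within the coding region. Windows starting in its first 1000 bases had a median of 12.0 mismatches, whereas those starting after base 2000 had a median of 19.0. Between base 1760 and base 1939 all 180 windows had 35 or more mismatches, beside medians of 40.0 to 41.0 for *Morc2b* windows against the other members. The other members were farther from *Morc2b*. No 75-base window of *Morc2b* came closer than 18 mismatches to *Morc1*, 23 to *Morc3* or 25 to *Morc4*. The closest windows of *Morc1* and *Morc2a* differed at 14 bases. Over aligned coding bases, *Morc2a* and *Morc2b* were identical at 79.7% of 3063 paired positions. The next pair was *Morc3* and *Morc4* with 51.9%, and the remaining 8 pairs lay between 43.1% and 51.2%.

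**Figure D1:**
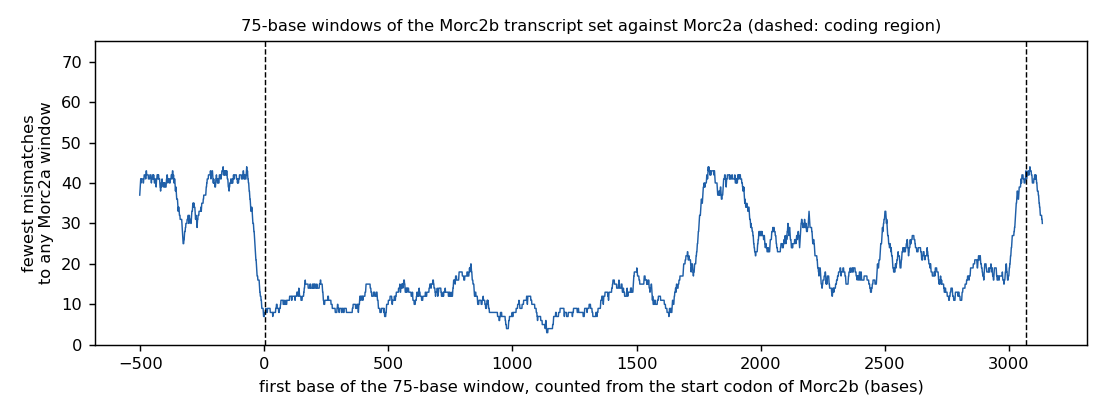
Fewest mismatches between each 75-base window of the *Morc2b* transcript and any window of *Morc2a* (vertical axis, bases) by the first base of the window counted from the start codon (horizontal axis, bases). Mismatches were counted without gaps. Dashed lines mark the first and last coding base. The lowest point is 3 mismatches at base 1138, and the plateau from base 1760 to 1939 stands at 35 or more.

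Read totals on listed transcripts ranged from 27144796 to 36941755 per library. The counts are given per RefSeq transcript, and reads that overlapped more than 1 listed transcript, 26.8% to 28.8% of uniquely aligned reads, are not in them. *Morc1*, *Morc2b* and *Morc3* have 1 listed transcript each. *Morc2a* and *Morc4* have 2, so their counts hold only reads that fell on 1 of the pair. The second *Morc2a* transcript, NM_198162, had 22 counts over all samples against 11106 for NM_001159288, and the second *Morc4* transcript, NM_001193309, was listed at 0 in all 8 samples. Levels are given as CPM, counts divided by library sizes that were scaled by the TMM method. In whole testis, fewer cells of a type and less RNA per cell cannot be told apart.

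The targeted gene was examined first, and it went against the labels in 1 library of each genotype. Replicates 1 to 4 labelled wild type had 428, 443, 24 and 1272 *Morc2b* counts. Those labelled *Morc2b*-/- had 10, 10, 115 and 2. The library labelled wild type replicate 3 was therefore below the library labelled *Morc2b*-/- replicate 3, at 0.857 against 3.29 CPM, while in the other 6 libraries the genotypes were far apart. Counting error does not bridge the gap, as the exact Poisson 95% interval was 15.4 to 35.7 counts for the former and 94.9 to 138 for the latter, and these intervals cover counting error only. The counts cover both exons. Exon 1, of 477 bp and untranslated, makes up 12.85% of the *Morc2b* transcript and remains in the knockout allele, so reads on it cannot be told apart from reads on exon 2 in these tables. Whether the labels of the libraries numbered 3 were exchanged was not tested, and every genotype mean and difference below takes the labels as they stand. Values of *Morc2b* are also given without both libraries numbered 3. As these were left out for their *Morc2b* counts, the separation of the genotypes in the other 6 follows from that choice and is given as a description.

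*Morc2b* was the most variable member and the only one with a large genotype difference in its mean. It stood at 11.7, 16.2, 0.857 and 39.98 CPM in wild type replicates 1 to 4 and at 0.323, 0.270, 3.29 and 0.0688 CPM in the *Morc2b*-/- replicates. Its spread within a genotype was wide: the highest wild type library was 46.6 times the lowest, and the highest *Morc2b*-/- library 47.9 times the lowest. Wild type libraries averaged 17.2 ± 16.5 CPM and *Morc2b*-/- libraries 0.989 ± 1.54 CPM (SD, n = 4 each). This is a log2 fold change of -4.09 (standard error 1.21, 95% interval -6.82 to -1.36), with an unadjusted p of 0.00793 and an adjusted p of 0.9998 in edgeR's quasi-likelihood test with Benjamini-Hochberg adjustment. The exact two-sided permutation test on log2 CPM gave p = 0.0571, where 4 against 4 libraries allow no value below 0.029. In the 6 libraries without both numbered 3, wild type averaged 22.6 ± 15.2 CPM and *Morc2b*-/- 0.221 ± 0.134 CPM (SD, n = 3 each), a difference of -6.63 on the log2 scale.

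None of the other members passed the test in either direction. Of the 13507 genes that passed the low-count filter, 0 (0%) had an adjusted p under 0.05 in edgeR, 249 (1.84%) had an unadjusted p under 0.05, and DESeq2 called 1 gene, *Pkmyt1*, which is no *Morc* gene. All 5 *Morc* genes passed the filter, 0 of 5 were called, and *Morc2b* was the only member with an unadjusted p under 0.05. Of all tested genes, 0.881% were lower and 0.407% higher in *Morc2b*-/- with no overlap between genotypes, and 0 of the 5 members were among them. The median log2 fold change of all tested genes was 0.00.

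*Morc2a*, the parent gene of *Morc2b*, was nearly constant. It stood at 42.1, 48.7, 44.7 and 42.5 CPM in wild type replicates 1 to 4 and at 41.4, 45.8, 41.4 and 42.3 CPM in the *Morc2b*-/- replicates. Replicate 2 was the highest library of both genotypes. The ranges overlapped between 42.1 and 45.8 CPM, and *Morc2b*-/- replicates 1 and 3, both at 41.4 CPM, lay just below the wild type range. The means were 44.5 ± 3.05 CPM (SD, n = 4) and 42.7 ± 2.12 CPM (SD, n = 4). On the log2 scale the difference was -0.06 (standard error 0.07, adjusted p = 0.9998 in edgeR), and its 95% interval of -0.22 to 0.11 corresponds to 0.857 to 1.08 times the wild type level. The exact permutation test gave p = 0.400.

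*Morc1*, the germ line silencing factor, varied more than *Morc2a* but not by genotype. Its levels were 49.4, 54.8, 66.2 and 50.5 CPM in wild type replicates 1 to 4 and 69.8, 51.7, 60.8 and 49.9 CPM in the *Morc2b*-/- replicates. The highest libraries were wild type replicate 3 and *Morc2b*-/- replicate 1, and each genotype had libraries near 50. Its genotype difference was 0.07 on the log2 scale (standard error 0.13, 95% interval -0.22 to 0.37, adjusted p = 0.9998 in edgeR). The exact permutation test gave p = 0.686. Without *Morc2b*-/- replicate 1 the log2 fold change was -0.03.

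*Morc3* had the highest CPM of the members and was the steadiest. The counts of *Morc2a* and *Morc4* leave out reads shared by their listed transcripts, so this is no ranking of true abundance. *Morc3* had 5972 to 8259 counts per library. These were 203.5, 219, 227 and 232 CPM in wild type replicates 1 to 4 and 225.5, 223, 215 and 212 CPM in the *Morc2b*-/- replicates. The *Morc2b*-/- libraries all fell inside the wild type range. The estimated log2 difference was -0.01 (standard error 0.05, 95% interval -0.13 to 0.11, adjusted p = 0.9998 in edgeR), and the exact permutation test gave p = 0.886.

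*Morc4* was close to the limit of these counts. Wild type replicates 1 to 4 held 12, 10, 13 and 18 of its reads and the *Morc2b*-/- replicates 13, 6, 11 and 18, and 18 counts was the highest value of both genotypes. These are 0.327 to 0.566 CPM in wild type and 0.162 to 0.619 CPM in *Morc2b*-/-. The log2 fold change was -0.20 with a standard error of 0.39, and the 95% interval of -1.08 to 0.68 covers both a large fall and a large rise. The exact permutation test gave p = 0.543. These counts leave out reads shared by its listed transcripts.

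**Figure D2:**
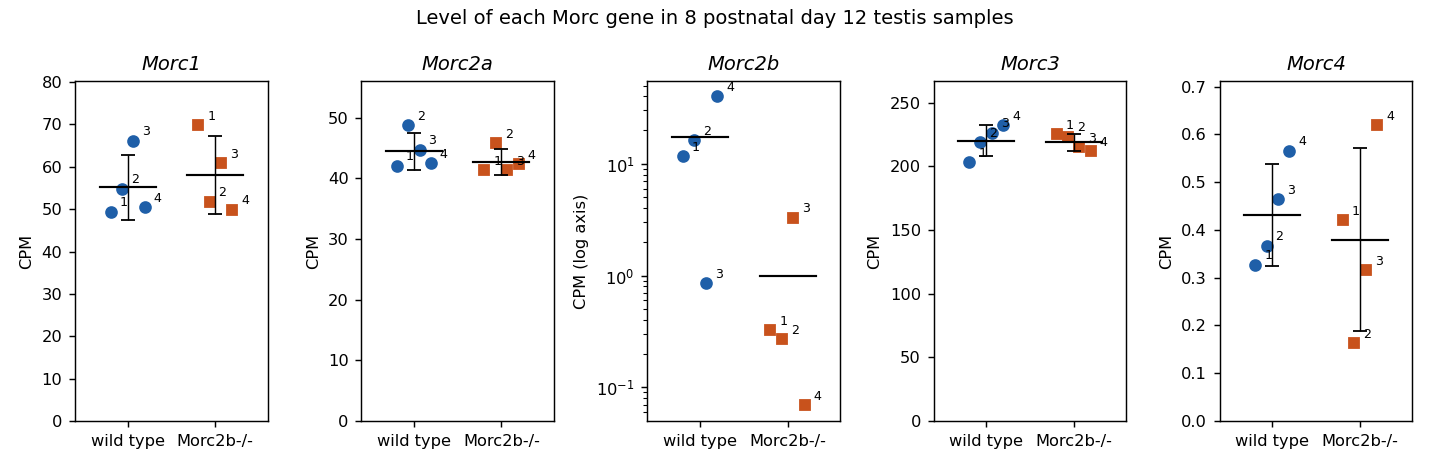
CPM of each *Morc* gene in the 8 libraries, by genotype (circles wild type, squares *Morc2b*-/-, numbers give the replicate), with a line at the mean and, outside the *Morc2b* panel, bars of 1 SD. The *Morc2b* panel has a log axis and no SD bar. *Morc2b* ranged from 0.0688 to 39.98 CPM, while *Morc3* stayed between 203.5 and 232 CPM.

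**Figure D3:**
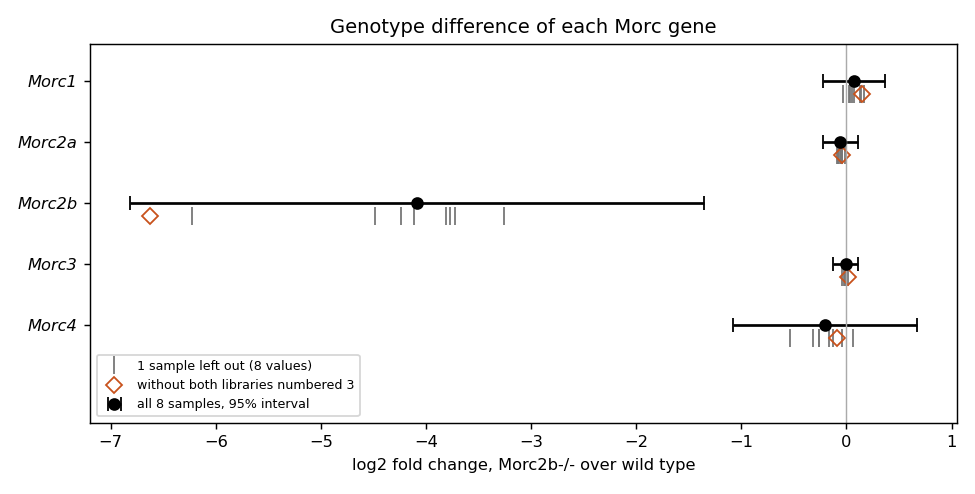
Log2 fold change of *Morc2b*-/- over wild type for each *Morc* gene (horizontal axis) in edgeR. Black points with bars are the estimate and 95% interval from 8 libraries, grey ticks the 8 estimates with 1 library left out, and diamonds the estimate without both libraries numbered 3. Only the interval of *Morc2b* lies away from 0, and its diamond stands at -6.63.

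The members also differed in how steady they were, set against all tested genes. The coefficient of variation of *Morc2b* was 96.0% within wild type and 156% within *Morc2b*-/-, above that of 98.7% and 99.6% of tested genes. Without both libraries numbered 3 it was 67.1% and 60.8%. For *Morc3* it was 5.67% and 2.97%, above that of 14.6% and 4.21% of them. *Morc2a* had 6.86% and 4.95%, and *Morc1* had 13.9% and 15.8%, beside medians of 13.5% and 11.8% over all tested genes. The values of *Morc4*, 24.8% and 50.6%, rest on 6 to 18 counts a library.

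Levels between genes were compared per length, for the 3 members with 1 listed transcript. In wild type, *Morc3* stood at 52.7 ± 2.99 CPM per kb (SD, n = 4), *Morc1* at 18.1 ± 2.51 and *Morc2b* at 4.63 ± 4.45. Neither neighbouring pair overlapped, since *Morc3* had 48.7 or more, *Morc1* had 16.2 to 21.7 and *Morc2b* had 10.8 or less. In *Morc2b*-/- the order was the same, with 52.4 ± 1.55, 19.0 ± 3.00 and 0.266 ± 0.415 CPM per kb (SD, n = 4). Without both libraries numbered 3, *Morc2b* stood at 6.10 ± 4.09 CPM per kb in wild type and 0.0595 ± 0.0362 in *Morc2b*-/- (SD, n = 3). The lengths are those of the annotated transcripts, 4178, 3050 and 3712 bp.

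The retrogene was then set against its parent within each library, which takes out library size. *Morc2b* CPM was 27.7%, 33.3%, 1.92% and 94.1% of *Morc2a* CPM in wild type replicates 1 to 4. In the *Morc2b*-/- replicates it was 0.781%, 0.590%, 7.96% and 0.162%. In wild type replicate 4 the retrogene was thus almost level with the *Morc2a* count, and in wild type replicate 3 it was within the *Morc2b*-/- range. This comparison is between count levels, since the *Morc2a* value leaves out reads shared by its transcripts and is not per length. The difference in the mean log2 ratio was -4.17 (n = 4 each, exact two-sided permutation test, p = 0.0571). Without both libraries numbered 3 it was -6.22. Set against the sum of the other 4 members, *Morc2b* gave a difference of -4.23 (exact permutation p = 0.0571), or -6.29 without both libraries numbered 3. That sum itself was 295 to 338 CPM in wild type and 305 to 337 CPM in *Morc2b*-/-, with full overlap. *Morc2b* made up between 0.253% and 10.9% of the CPM of the 5 members in wild type, and between 0.0226% and 1.03% in *Morc2b*-/-.

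*Morc2b* and the other members were then compared within genotype, first by the order of the libraries. In wild type the *Morc2b* order from high to low was replicate 4, 2, 1, 3, and in *Morc2b*-/- it was 3, 1, 2, 4. The latter order is weak, since *Morc2b*-/- replicates 1 and 2 both had 10 counts and their Poisson interval of 4.80 to 18.4 overlaps that of replicate 4, 0.242 to 7.22, so only replicate 3 stands clear of counting error. Of the 6 pairs of libraries within a genotype, *Morc2a* ordered 3 like *Morc2b* in wild type and 2 in *Morc2b*-/-. *Morc1* did so in 2 and 5, *Morc3* in 4 and 4, and *Morc4* in 4 and 2. No member had all 6 pairs in the *Morc2b* order in either genotype, and the range of *Morc2b*, over 46-fold within a genotype, was set against a range of at most 1.40-fold for *Morc1*, *Morc2a* and *Morc3*.

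With the genotype means subtracted from log2 CPM, a relation chosen after the data were seen, Pearson's r with *Morc2b* over the 8 libraries was -0.22 for *Morc1*, -0.20 for *Morc2a*, -0.04 for *Morc3* and -0.17 for *Morc4*. Exact permutation within genotype gave p-values of 0.575 or higher, and 0.931 after Benjamini-Hochberg adjustment over the 4 relations. Spearman's rho lay between -0.33 and 0.14 (exact permutation p of 0.512 or higher, adjusted p = 1.0). The 2 libraries farthest from the median of *Morc2b* were those numbered 3. Without them r was 0.43 for *Morc1*, -0.06 for *Morc2a* and -0.10 for *Morc4*, with exact permutation p of 0.5 or higher. For *Morc3* it was 0.93 (exact permutation p = 0.028, the smallest that 36 rearrangements allow, and 0.111 adjusted over the 4). *Morc3* ordered all 3 remaining pairs of each genotype like *Morc2b*. In *Morc2b*-/- that order rests on 10, 10 and 2 *Morc2b* counts in replicates 1, 2 and 4. The libraries numbered 3 were left out for their *Morc2b* values, so p-values without them are given as a description. The relation of *Morc3* to *Morc2b* thus depends on the libraries numbered 3.

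No relation among the other 4 members passed a test. Over the 8 libraries the 6 pairs had Pearson's r between -0.33 and 0.39 and Spearman's rho between -0.14 and 0.52. The exact permutation p-values for r were 0.335 or higher, and 0.895 after Benjamini-Hochberg adjustment over the 6 pairs. *Morc1* and *Morc3* had the highest r, 0.39 (rho 0.52, exact permutation p = 0.335 and 0.197). It fell to 0.06 without the 2 libraries farthest from the *Morc1* median, *Morc2b*-/- replicate 1 and wild type replicate 3, so it rests on them.

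**Figure D4:**
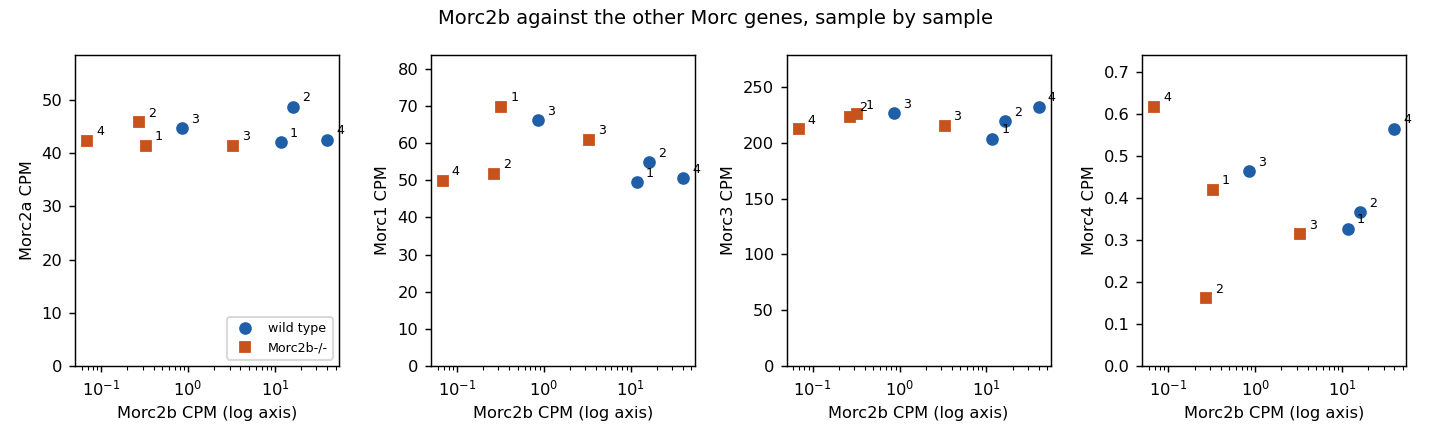
CPM of *Morc2a*, *Morc1*, *Morc3* and *Morc4* (vertical axes) against *Morc2b* CPM (horizontal log axes) in each library (circles wild type, squares *Morc2b*-/-, numbers give the replicate). *Morc2b* spans 0.0688 to 39.98 CPM, while *Morc2a* stays between 41.4 and 48.7.

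*Morc2b* is a meiotic gene, so its level was set beside summed markers of germ cell stages in the same libraries. The markers of pachytene spermatocytes, 12 genes of which 10 had at least 10 counts, summed to 137, 104, 26.2 and 314 CPM in wild type replicates 1 to 4. In the *Morc2b*-/- replicates they summed to 29.0, 44.1, 162 and 40.0 CPM. The library labelled wild type replicate 3, low in *Morc2b*, had the lowest sum of its genotype, and the library labelled *Morc2b*-/- replicate 3, high in *Morc2b*, had the highest. Pachytene markers ordered 5 of 6 pairs of wild type libraries and 4 of 6 pairs of *Morc2b*-/- libraries like *Morc2b*. Without both libraries numbered 3 they ordered 2 of 3 wild type pairs and 1 of 3 *Morc2b*-/- pairs like *Morc2b*. The part of stage composition in the *Morc2b* levels was not tested.

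The other stages gave the following values, with no test of a difference between stages. The 12 markers of leptotene and zygotene spermatocytes, the stages that make up most meiotic cells at this age, summed to 3668 to 5143 CPM in wild type and 3240 to 5149 CPM in *Morc2b*-/-. They ordered 4 of 6 wild type pairs and 0 of 6 *Morc2b*-/- pairs like *Morc2b*. Spermatogonial markers summed to 953 to 1183 CPM in wild type and 1006 to 1175 CPM in *Morc2b*-/- and matched 0 and 5 of 6 pairs. The summed spermatid markers were 305 CPM in the library labelled *Morc2b*-/- replicate 3 and 151 CPM in wild type replicate 1, beside 2.23 to 34.5 CPM in the other 6 libraries, and ordered 1 of 6 wild type and 5 of 6 *Morc2b*-/- pairs like *Morc2b*. Epididymal markers reached 250 CPM in wild type replicate 1, 14.0 CPM in *Morc2b*-/- replicate 2 and at most 1.69 CPM elsewhere. *Lcn5*, *Lcn9* and *Rnase10* were listed at 0 in every library, which does not show absence where listed transcripts share reads. The Sertoli markers, which check the tissue label, were abundant throughout at 7597 to 9217 CPM. *Morc1* ordered all 6 *Morc2b*-/- pairs and 4 of 6 wild type pairs like the spermatogonial markers, which is given as a description.

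When *Morc2b* was expressed as a share of the pachytene marker sum, a measure chosen after its values were seen, the genotypes no longer overlapped. It was 8.54%, 15.6%, 3.27% and 12.7% in wild type replicates 1 to 4. It was 1.12%, 0.613%, 2.03% and 0.172% in the *Morc2b*-/- replicates. The libraries numbered 3 remained neighbours, at 3.27% against 2.03%. The separation depended on the markers. As a share of the leptotene and zygotene markers the genotypes overlapped, with 0.0222% in wild type replicate 3 against 0.102% in *Morc2b*-/- replicate 3. Of the 9 pachytene markers with a count in every library, 4 (*Pgk2*, *Ldhc*, *Adam2* and *Spag6l*) gave ratios with no overlap and 5 did not. Each of these 4 was higher in *Morc2b*-/- replicate 3 than in wild type replicate 3, as *Ldhc* at 103 against 3.36 CPM. Division by them therefore lowers the former ratio. *Nme5* and *Pou5f2* were also higher there, but their ratios overlapped. The share of all tested genes that give such ratios was not computed. *Piwil1*, which codes for the pachytene Piwi protein, was at 14.7 to 15.8 CPM in all *Morc2b*-/- libraries, including replicate 3, where the lactate dehydrogenase gene *Ldhc* was at 103 CPM. In wild type *Piwil1* was at 16.6 to 133 CPM, so its genotypes did not overlap. Of all tested genes, 0.881% were lower in *Morc2b*-/- with no overlap. The paper names *Piwil1*, *Adam2* and *Clgn* among the genes misexpressed on loss of MORC2B. Whether the marker sum itself depends on genotype was not tested.

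**Figure D5:**
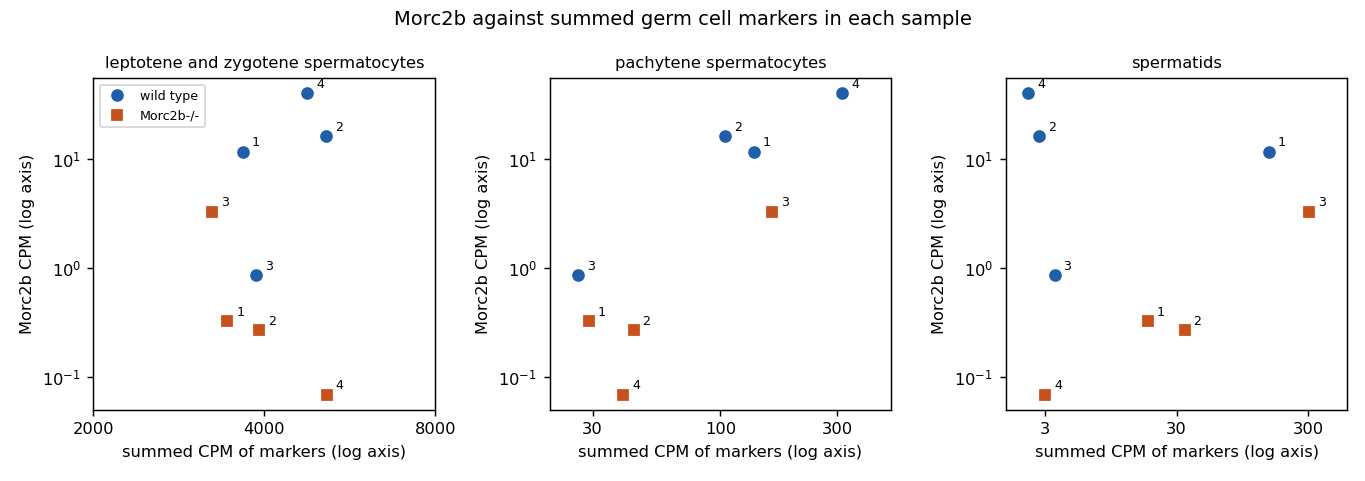
*Morc2b* CPM (vertical log axes) against the summed CPM of leptotene and zygotene, pachytene and spermatid markers (horizontal log axes) in each library (circles wild type, squares *Morc2b*-/-, numbers give the replicate). In the pachytene panel the library labelled wild type replicate 3 sits at 26.2 and the library labelled *Morc2b*-/- replicate 3 at 162 CPM.

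Among 11551 genes with a mean of at least 1 CPM, the genes most like each member over the 8 libraries were named by Pearson's r of log2 CPM, as a description. Nearest to *Morc2b* were *1700006A11Rik* (r = 0.995), *4921525O09Rik* (0.975), *Gm21269* (0.963), *Smpd5* (0.958) and *Ift140* (0.949). *1700006A11Rik* stood at 6.73, 9.61, 0.357 and 29.2 CPM in wild type replicates 1 to 4 and at 0.194, 0.0811, 1.49 and 0.0344 CPM in the *Morc2b*-/- replicates. Wild type replicate 3 was below *Morc2b*-/- replicate 3 for this gene as for *Morc2b*. Without both libraries numbered 3 it was again the nearest gene (r = 0.997, 6 libraries), *4921525O09Rik* ranked 3, *Smpd5* 6, *Gm21269* 10 and *Ift140* 16. The cilium transport gene *Ift140* had the same wild type order at a far smaller range, 171 to 185 CPM in wild type and 158 to 172 CPM in *Morc2b*-/-.

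The genes nearest to the other members were different ones. They were *Plce1* (r = 0.973), *Tpp1*, *Stox1*, *Pipox* and *Slc26a7* for *Morc1*, and the helicase gene *Recql5* (0.968), *Alms1*, *Sugp1*, *Mgat5* and *Spag16* for *Morc2a*. For *Morc3* they were *Gm10336* (0.962), *Msl1*, *Crlf3*, *Rasef* and *Kank4os*. The list for *Morc4*, led by *Snora31* (0.956) among 11552 genes, rests on its 101 counts in all. The libraries share depth and composition, and these are the highest of 11551 coefficients, each from 8 points.

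Known partners of MORC proteins were read from lists of the surrounding pathways. Of the HUSH and H3K9 partners of MORC2, 6 of 7 were tested, 0 were called in either direction, and the median log2 fold change was -0.05. *Mphosph8*, the chromodomain subunit of HUSH, stood at 372 ± 41.1 CPM in wild type and 357 ± 25.6 CPM in *Morc2b*-/- (SD, n = 4 each, log2 fold change -0.06, standard error 0.09). The methyltransferase gene *Setdb1* was listed at 0 counts in every library, which for a gene with several listed transcripts does not measure expression. Of the genes around PRDM9, the methyltransferase that marks recombination hotspots, 6 of 7 were tested and 0 were called, with a median of 0.02. *Prdm9* itself was at 105 ± 26.8 and 105 ± 14.0 CPM (SD, n = 4 each, log2 fold change 0.00, standard error 0.17).

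Of 12 GHKL ATPases outside the MORC family 10 were tested and 0 were called, with a median log2 fold change of 0.00. *Smchd1*, a silencing factor of the inactive X, stood at 402 ± 27.5 and 401 ± 19.6 CPM (SD, n = 4 each, log2 fold change 0.00, standard error 0.06). Of 11 transposon silencing genes of the MORC1 period, 6 were tested and 0 were called, with a median of -0.16. Its members *Piwil2* and *Tdrd9* were the only listed genes with an unadjusted p under 0.05 in edgeR, at 0.048 and 0.039. Of all tested genes, 1.84% had an unadjusted p under 0.05. *Piwil2* was at 651 ± 77.9 CPM in wild type and 571 ± 20.7 in *Morc2b*-/- (SD, n = 4 each, log2 fold change -0.19, standard error 0.08, adjusted p = 0.9998 in edgeR). *Tdrd9* was at 247 ± 52.6 and 197 ± 14.2 CPM (SD, n = 4 each, log2 fold change -0.33, standard error 0.14, adjusted p = 0.9998 in edgeR). *Dnmt3l*, *Dnmt3b* and *Uhrf1* were listed at 0. Reads shared by listed transcripts are left out, so a 0 does not show that a gene was silent.

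Of 8 MORC3 nuclear body partners 6 were tested and 0 were called, with a median log2 fold change of -0.08. *Pml* was listed at 0, which does not measure expression where listed transcripts share reads. *Trp53* was lower in all 4 *Morc2b*-/- libraries than in any wild type library, on 99 counts in all and at an unadjusted p of 0.155 in edgeR. The gap was narrow, at 0.344 CPM in *Morc2b*-/- replicate 4 against 0.354 CPM in wild type replicate 1. Low counts, like counts of 0, do not measure the level of a gene where its listed transcripts share reads. Of all tested genes, 0.881% were lower in *Morc2b*-/- with no overlap. Of 6 genes whose proteins were found with MORC2B by immunoprecipitation, 5 were tested and 0 were called, with a median of -0.01. These medians stand beside 0.00 for all tested genes, whose middle 50% lay between -0.08 and 0.07.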

How the data were processed

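Total RNA of 8 pairs of postnatal day 12 testes was made into stranded mRNA libraries and sequenced for 75 cycles. The authors trimmed the reads, mapped them to mm9 with Tophat, and deposited for every sample raw counts by RefSeq transcript, neither pooled nor normalized. The submitters' processing notes also name Cufflinks and Cuffdiff. How strand was treated, which program counted and which annotation release was used are not given in the sources used here. Of 35819 listed transcripts, 35522 were matched to a symbol and summed per gene. The 297 unmatched ones held 0.484% of the counts and stayed as units of their own.

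The test of genotype was the quasi-likelihood test of edgeR 4.0.16 (R 4.3.3, filterByExpr, TMM, Benjamini-Hochberg adjustment over all 13507 tested genes, threshold 0.05). Single values were compared by exact permutation over the 70 splits, using log2 CPM (prior count 2). The libraries come from separate pairs of testes, whose litters are not given in the sources used here, and p-values measure the spread between them. The procedure was tested on simulated counts. Coding sequences and coordinates are from GENCODE vM1 on NCBIM37, aligned with mafft 7.526. The closest genes were the 5 with the highest r, and list genes were named at an unadjusted p under 0.05, plus *Prdm9*, *Mphosph8*, *Setdb1* and *Smchd1*. Members and lists were chosen with earlier results of these data known.

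Alternatives were RLE scaling, no low-count filter, robust empirical Bayes, DESeq2 1.42.0, a prior count of 0.5, the replicate number as a block and leaving out each library. Leaving out both libraries numbered 3, the genotype-centred relations of *Morc2b* and its share of germ cell markers were added after seeing the data.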

Additional observations from a re-analysis of the deposited data

Results flagged for a closer look

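Within the 4 libraries labelled *Morc2b*-/-, replicate 3 stood apart in *Morc2b*. Its gap to the next library was 0.921 of the whole range of CPM, above Dixon's 95% critical value for 4 samples. The flag holds for CPM only. On log2 CPM, the scale of the permutation tests, replicates 1 to 4 stood at -1.37, -1.59, 1.75 and -2.93. There the values are spread more evenly, and the rule was not applied to them. The ratio of *Morc2b* to *Morc2a* singled out the same library, with a gap of 0.921 of the range. *Morc2a* was nearly constant in these libraries, at 41.4 to 45.8 CPM, so the ratio largely repeats the *Morc2b* values. The library had 115 *Morc2b* counts beside 10, 10 and 2. It also had the highest summed pachytene and spermatid markers of its genotype, 162 and 305 CPM, and the part of these in its *Morc2b* level was not tested. In all, 12 groups of 4 values were examined, and for normally distributed values chance gives such a gap in about 1 group of 20.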

How the results depend on the processing

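Across the alternatives, 127 recomputed values kept their direction and their side of the threshold, 14 changed sign and 1 was stronger. No main value was under the threshold, and some alternatives could not fall under it. The exact permutation test of the *Morc2b* ratios without both libraries numbered 3 allows no p below 0.1, and the sign flip is limited in the same way. Leaving out each library in turn gave log2 fold changes of -6.23 to -3.26 for *Morc2b*, -0.030 to 0.17 for *Morc1*, -0.094 to -0.010 for *Morc2a*, -0.045 to 0.014 for *Morc3* and -0.53 to 0.060 for *Morc4*. The lowest *Morc2b* value came without *Morc2b*-/- replicate 3 and the highest without wild type replicate 4. *Morc1* turned negative (-0.030) without *Morc2b*-/- replicate 1, *Morc4* positive (0.060) without *Morc2b*-/- replicate 2, and *Morc3* turned positive without wild type replicate 3 (0.0038), wild type replicate 4 (0.014), *Morc2b*-/- replicate 4 (0.0047) or both libraries numbered 3 (0.014). The cause was not tested. Without the 2 libraries farthest from the median, r changed sign for *Morc1* and *Morc2a* (0.040), *Morc1* and *Morc4* (-0.26), *Morc2a* and *Morc4* (0.35) and *Morc3* and *Morc4* (-0.30). The genotype-centred r of *Morc2b* turned positive with *Morc1* (0.43) and *Morc3* (0.93) without its 2 farthest libraries, which are both libraries numbered 3. DESeq2 called 1 gene (*Pkmyt1*) where edgeR called 0. Replicate numbers did not pair the samples, as deviations of same-numbered libraries had r from -0.35 to 0.53 (mean 0.080) and 1 of 4 wild type libraries correlated best with its own number. A fit with replicate number as a block called 0 genes, 572 had an unadjusted p under 0.05 instead of 249, and the *Morc2b* log2 fold change was -4.50. Paired by number, the log2 ratio of *Morc2b* to *Morc2a* stayed at -4.17 (exact sign-flip permutation p = 0.25). The count with an unadjusted p under 0.05 was 422 with no low-count filter, 504 without wild type replicate 3, 466 without wild type replicate 4, 385 without *Morc2b*-/- replicate 1 and 421 without both libraries numbered 3. The wide range of *Morc4* goes with 6 to 18 counts a library, and the cause was not tested.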
